A study of Cricetulus griseus with 24 samples.

Results

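The sterol and fatty acid synthesis genes of Chinese hamster ovary (CHO) cells were followed across 3 cell lines and 2 growth phases by RNA sequencing. The genes were taken by name from a list of 34 symbols of the SREBP pathway, wherever the deposited table of 28037 genes carried the symbol. This gave 27 genes, and Sqle, whose row carries only a locus name, was found through its RefSeq gene ID, so that 28 genes were analysed. Acat2, Cyp51 (listed under 2 symbols, the other being Cyp51a1), Scd, Fads1 and Elovl6 were not analysed here. By role, 6 of the 28 belong to the mevalonate pathway, 10 convert farnesyl units to cholesterol, 6 regulate SREBP or move sterol inside the cell, 3 make fatty acids, and 3 desaturate, elongate or activate them.

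A0 is a cell line of CHO DG44 origin that secretes a humanized antibody, and A1 is its progeny after gene amplification with methotrexate. Both carry the same pair of co-transfected plasmids (antibody heavy chain with dihydrofolate reductase, and light chain with neomycin phosphotransferase) and went through selection with G418, and each is a single line. CHO-S, which makes no antibody, served as the negative control. Its samples are titled NDST, an abbreviation that the labels do not explain. The antibody lines were kept in serum-free medium with hydrolysate and insulin; the medium of CHO-S is not given in the sources used here. Each line was sampled in exponential and in stationary phase. A0 had 4 numbered cultures per phase, and A1 and CHO-S had 3 each.

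Cholesterol is built from acetyl-CoA through mevalonate, farnesyl diphosphate and squalene, and fatty acids are built from the same acetyl-CoA through malonyl-CoA. SREBP transcription factors, encoded by Srebf1 and Srebf2, switch on most genes of both routes. They are made as precursors in the endoplasmic reticulum, where SCAP escorts them to the Golgi for cleavage when membrane sterol is low, and INSIG proteins hold SCAP back when sterol is plentiful. The enzyme genes are therefore known for rising and falling together in cultured cells.

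Gene counts summed to 1038026 to 14652646 per library, with a median of 12166034 over 24 libraries. The smallest library, that of CHO-S stationary culture 1, stood apart. In it 32.8% of the reads fell outside annotated features, against 18.1% and 18.2% in the other stationary CHO-S libraries, and Mvk was at 7.22 CPM (read counts scaled for library size) against 48.4 and 43.5 CPM. Counts of called genes that use this library are therefore given with and without it. Fold changes without it are given for some genes only, and the others include it. In comparisons over both phases, leaving out a culture dropped its number at both phases. Leaving out culture 1 left 2 CHO-S cultures per phase, and a smaller adjusted p there is not read as stronger evidence. Shares of all genes were not computed for most counts with 1 culture left out. A change in a count without such a share is not read as particular to the 28 genes. CPM values are scaled by TMM over all 20 cultures. Apart from a sum over proliferation genes, they were read only within a gene, since transcript lengths were not used. As a check of the labelled cell type, 5 genes listed as markers of CHO cells were read. Vim, Lgals1 and S100a6 were abundant in every culture (at least 282 CPM), but the keratin genes Krt8 and Krt18 of the same list were nearly absent, with at most 4 counts. Among markers of other cell types, Ptprc, Cd3e, Alb and Gfap had at most 10 counts in any culture, and Epcam, Cdh1 and Pecam1 at most 72. In bulk RNA, fewer cells of a kind and less RNA per cell cannot be told apart. The methods describe triplicate batch cultures of each line, but the labels only number the samples and give 4 for A0, so p-values measure the spread between numbered samples, which may be technical. Fold changes are given on the log2 scale with their standard error, and p-values come from the quasi-likelihood test of edgeR, adjusted by Benjamini-Hochberg over all genes tested (threshold 0.05).

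**Figure D1:**
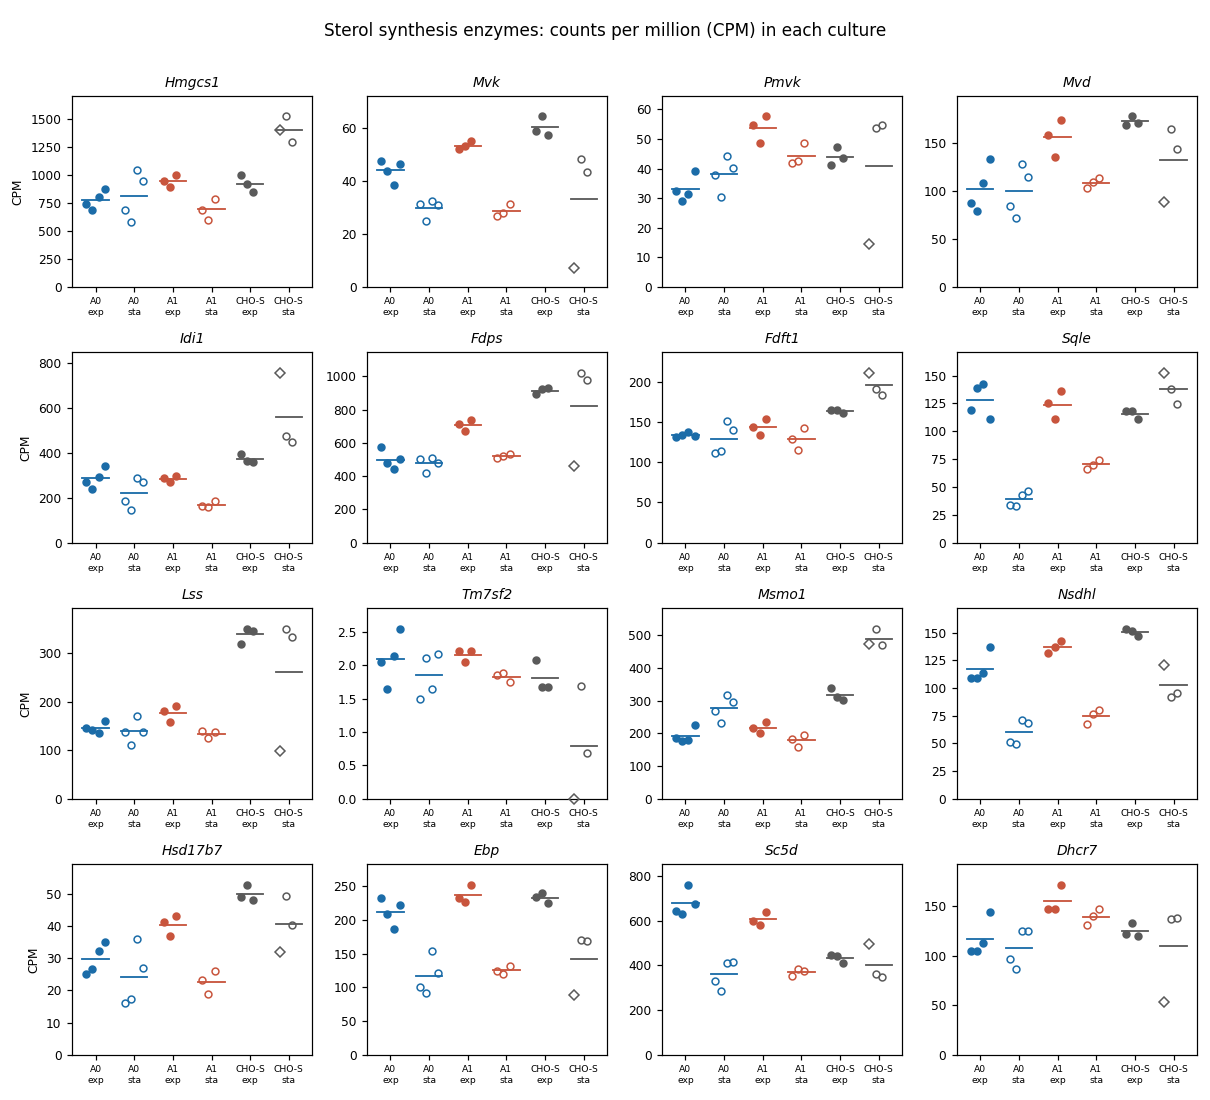
Scaled counts (CPM, linear axes from 0) of the 16 sterol synthesis enzymes, 1 panel per gene in pathway order. Each point is 1 culture (filled, exponential phase; open, stationary phase; blue, A0; red, A1; grey, CHO-S; diamond, CHO-S stationary culture 1) and each line is the group mean. Sqle lies at 111 to 143 CPM in exponential A0 cultures and at 33.4 to 46.1 CPM in stationary ones, and Msmo1 is higher at stationary phase in A0 and CHO-S but lower in A1.

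A1 was compared with A0 at exponential phase to ask how the amplified progeny differs from its parent. Of the 28 genes, 10 were higher in A1 and 3 were lower, against 12% and 13.8% of the 20021 genes tested. The median over the 28 genes was 0.23, and that over all genes tested was -0.041. In the mevalonate pathway 4 of 6 genes were higher and none was lower, and between farnesyl diphosphate and cholesterol 3 of 10 were higher and none was lower.

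Pmvk, the phosphomevalonate kinase, was at 32.5, 29.01, 31.4 and 39.1 CPM in the A0 cultures and at 54.9, 48.6 and 57.6 CPM in the A1 cultures. The groups did not overlap, and the difference was 0.70 ± 0.11 (adjusted p = 0.000331). Mvd, which decarboxylates mevalonate diphosphate, was at 87.8, 79.3, 108 and 133 CPM in A0 and at 158, 135 and 174 CPM in A1. A1 lay above A0 by 0.61 ± 0.15 (adjusted p = 0.0063), although A0 culture 4 came within 2 CPM of the lowest A1 culture. Fdps, the farnesyl diphosphate synthase, was at 576, 477, 442 and 502 CPM in A0 and at 711, 672 and 738 CPM in A1, a difference of 0.50 ± 0.10 (adjusted p = 0.00179). Hmgcs1, which makes HMG-CoA, was at 744, 685, 799 and 871 CPM in A0 and at 945, 896 and 998 CPM in A1. This was the smallest difference among the 4 called genes of the mevalonate pathway, at 0.29 ± 0.097 (adjusted p = 0.0388). Mvk, the mevalonate kinase, lay just outside the threshold at 0.28 ± 0.099 (adjusted p = 0.0506), with no overlap between the groups, and the isomerase gene Idi1 had a fold change of -0.0042 ± 0.11.

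Among the later enzymes, Hsd17b7, a sterol ketoreductase, was at 25.1, 26.5, 32.1 and 35.02 CPM in A0 and at 41.1, 36.9 and 42.9 CPM in A1. The A1 cultures all lay above those of A0, by 0.44 ± 0.12 (adjusted p = 0.0138). Dhcr7, which carries out a last reduction of the sterol ring, was at 105, 105, 112 and 144 CPM in A0 and at 147, 147 and 172 CPM in A1, a difference of 0.41 ± 0.12 (adjusted p = 0.0153). A0 culture 4 again came closest to A1. Lss, the lanosterol synthase, was higher by 0.27 ± 0.096 (adjusted p = 0.0468) with overlapping cultures. The other 7 did not pass the test: Fdft1 (0.10 ± 0.085), Sqle (-0.044 ± 0.11), Tm7sf2 (0.047 ± 0.23), Msmo1 (0.18 ± 0.10), Nsdhl (0.23 ± 0.098), Ebp (0.16 ± 0.095) and Sc5d (-0.16 ± 0.093).

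Of the 6 genes of fatty acid synthesis and processing, Acss2 and Acaca were higher in A1 and Elovl5 and Acsl3 were lower. Acss2, which makes acetyl-CoA from acetate, was at 106, 97.4, 114 and 126 CPM in A0 and at 191, 145 and 195 CPM in A1. The groups did not overlap, and the difference was 0.68 ± 0.12 (adjusted p = 0.000524). Acaca, the acetyl-CoA carboxylase that makes malonyl-CoA, was at 169, 182, 214 and 239 CPM in A0 and at 265, 272 and 277 CPM in A1, a difference of 0.43 ± 0.11 (adjusted p = 0.00855). Elovl5, an elongase of polyunsaturated chains, was at 368, 338, 334 and 339 CPM in A0 and at 245, 252 and 268 CPM in A1. A1 lay below A0 with no overlap, at a log2 fold change of -0.44 ± 0.086 (adjusted p = 0.00169). Acsl3, an acyl-CoA synthetase, was at 181, 179, 228 and 222 CPM in A0 and at 147, 138 and 166 CPM in A1, a difference of -0.43 ± 0.11 (adjusted p = 0.0091). Fasn, the fatty acid synthase, did not pass the test (0.27 ± 0.13, adjusted p = 0.151), and its A0 cultures ran from 659.7 to 1037 CPM.

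Of the regulators, only Scap passed the test at exponential phase, and it was lower in A1. Scap was at 259, 271, 268 and 245 CPM in A0 and at 195, 201 and 217 CPM in A1, a difference of -0.35 ± 0.087 (adjusted p = 0.00712) with no overlap. Srebf1 was at 7.85, 8.83, 10.7 and 11.6 CPM in A0 and at 11.5, 11.8 and 11.3 CPM in A1 (0.24 ± 0.15, adjusted p = 0.273). Srebf2 was at 298, 299, 330.4 and 324 CPM in A0 and at 323, 333 and 361 CPM in A1 (0.12 ± 0.086, adjusted p = 0.372). For both SREBP genes the groups overlapped. Insig1 was at 134, 135, 154 and 180.0 CPM in A0 and at 155, 137 and 175 CPM in A1 (0.046 ± 0.12, adjusted p = 0.812), and Insig2 was at 12.3, 13.1, 12.96 and 16.05 CPM and at 16.1, 16.9 and 15.6 CPM (0.25 ± 0.12, adjusted p = 0.166). The cultures of the INSIG genes overlapped as well.

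Several of these calls left the threshold when 1 culture was left out. Hmgcs1 was lost without A0 culture 1, 2 or 3 or without any 1 of the A1 cultures (adjusted p from 0.0537 to 0.18), and Lss in 5 cases, namely A0 culture 1, 2, 3 and A1 culture 1, 3 (0.0591 to 0.231). Without A1 culture 3, Mvd (0.0659), Hsd17b7 (0.092), Dhcr7 (0.123) and Acaca (0.0564) also left the threshold. Hsd17b7 did so without A0 culture 2 (0.0513) or A1 culture 1 (0.0631) too, Dhcr7 without A0 culture 2 (0.0588), Scap without A1 culture 1 (0.0601), and Acsl3 without A1 culture 1 (0.0536) or 2 (0.0653). Pmvk, Fdps, Acss2 and Elovl5 stayed past the threshold under every alternative run. Leaving out A1 culture 3 left 4 genes higher, leaving out A0 culture 2 or A1 culture 1 left 6 each, and without A1 culture 1 only 1 gene was lower. The shares of all genes in these fits were not computed.

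At stationary phase, Sqle and Dhcr7 were higher in A1 than in A0, and Msmo1, Srebf2, Scap and Fasn were lower. These are 2 and 4 of 27 genes tested, against 16% and 17.7% of the 19293 genes tested, so that the share lower was near that of all genes. The counts changed with the A0 cultures used, to 10 higher and 4 lower with cultures 1 and 2 alone. The medians were -0.042 over the 27 and -0.0021 over all genes. None of the 6 mevalonate genes passed the test, with fold changes from -0.40 ± 0.18 (Idi1) to 0.21 ± 0.12 (Pmvk).

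Sqle, the squalene epoxidase, was at 33.5, 33.4, 42.6 and 46.1 CPM in A0 and at 66.4, 69.6 and 74.7 CPM in A1. The lowest A1 culture lay well above the highest of A0, and the difference was 0.84 ± 0.11 (adjusted p = 5.75e-05). Dhcr7 was at 96.5, 86.4, 125 and 125 CPM in A0 and at 131, 139 and 147 CPM in A1 and was higher at this phase as well, by 0.35 ± 0.12 (adjusted p = 0.0282). Msmo1, the sterol methyl oxidase, went the other way. It was at 269, 230.3, 318 and 295 CPM in A0 and at 181, 158 and 196 CPM in A1, lower with no overlap at -0.65 ± 0.11 (adjusted p = 0.000283). Sqle, Dhcr7 and Msmo1 were the only called genes among the 16 sterol enzymes.

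Scap was at 289, 299, 287 and 286 CPM in A0 and at 213, 213 and 206 CPM in A1, again lower (-0.47 ± 0.063, adjusted p = 5.95e-05). Srebf2 was at 563, 537, 529.6 and 506 CPM in A0 and at 469, 414 and 446 CPM in A1, a difference of -0.28 ± 0.069 (adjusted p = 0.00578) that was not called at exponential phase. Fasn was at 795, 880.0, 1091 and 1050.0 CPM in A0 and at 755, 758 and 751 CPM in A1, a difference of -0.35 ± 0.097 (adjusted p = 0.012). None of these 3 overlapped between the lines. Srebf1 was at 10.5, 10.8, 12.2 and 11.8 and 10.5, 10.6 and 11.2 CPM (-0.086 ± 0.12, adjusted p = 0.641), Insig1 at 108, 87.7, 148 and 130.5 and 143, 123 and 144 CPM (0.20 ± 0.14, adjusted p = 0.299), and Insig2 at 22.98, 18.6, 17.9 and 16.5 and 20.3, 22.5 and 21.6 CPM (0.17 ± 0.12, adjusted p = 0.3), in A0 and A1 in that order. All 3 overlapped. Acss2 (0.42 ± 0.18), Acaca (-0.15 ± 0.069), Elovl5 (-0.11 ± 0.064) and Acsl3 (-0.042 ± 0.072), which were called at exponential phase, did not pass the test here.

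Without 1 culture, Dhcr7 was lost in 5 cases (A0 culture 1 or 2, or any A1 culture; adjusted p from 0.0595 to 0.129), Fasn without any 1 of the A1 cultures (0.0501 to 0.0559) and Srebf2 without A1 culture 2 (0.0533), whereas Sqle, Msmo1 and Scap stayed past the threshold under every alternative run. Without A0 culture 3 or 4, 5 and 4 genes were higher in A1, and without A1 culture 2 only 2 were lower, again with no share of all genes computed. The lines also differed in proliferation genes at this phase. At exponential phase 1 of 8 such genes was higher in A1 and 1 lower, against 12% and 13.8% of all genes. At stationary phase 6 of the 8 were higher in A1 and none was lower, against 16% and 17.7% of all genes. Their summed level at that phase, in which Mki67 and Top2a weigh most, was 1100 to 1982 CPM in A0 and 2199 to 2464 CPM in A1. The part of this in the sterol genes was not tested.

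**Figure D2:**
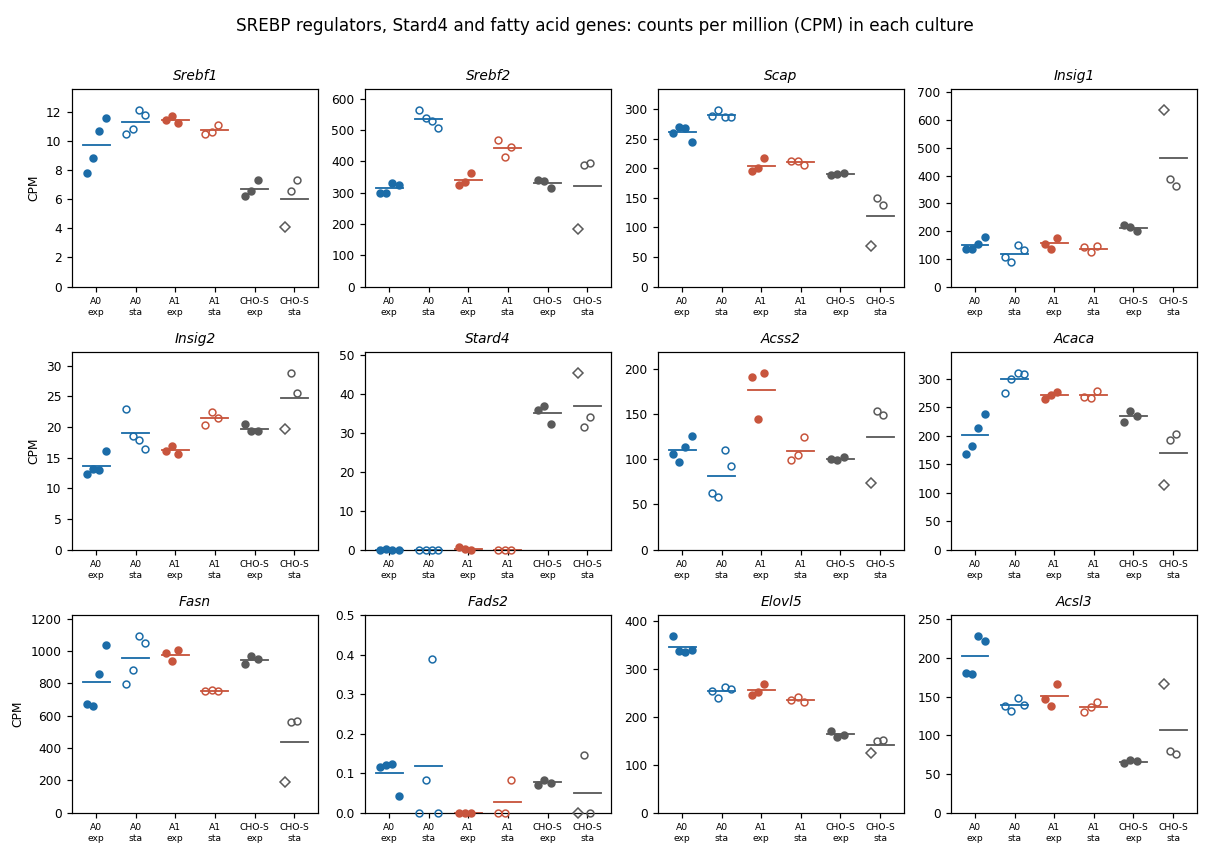
Scaled counts (CPM, linear axes from 0) of the SREBP regulators, the sterol carrier gene Stard4 and the fatty acid genes, 1 panel per gene. Points are cultures and lines are group means, with colours and symbols for line and phase (filled, exponential; open, stationary; blue, A0; red, A1; grey, CHO-S; diamond, CHO-S stationary culture 1). Stard4 is above 30 CPM in every CHO-S culture and below 1 CPM in every A0 and A1 culture.

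The difference between A1 and A0 depended on which A0 cultures it was taken from. The exponential libraries of A0 cultures 1 and 2 have a second library marked RLT, and those of cultures 3 and 4 one marked as a duplicate, so these pairs differ in their labels. At exponential phase 15 of the 28 genes lay higher in both of cultures 3 and 4 than in both of cultures 1 and 2, and none lay lower, against 26.1% and 23.5% of all genes. At stationary phase 19 lay higher and 3 lower, against 26.1% and 26.3%. At both phases 13 genes lay higher: Hmgcs1, Mvd, Idi1, Nsdhl, Hsd17b7, Sc5d, Dhcr7, Srebf1, Insig1, Acss2, Acaca, Fasn and Acsl3. The share of all genes that lay higher at both phases was not computed, so nothing is read from this count. Hmgcs1 at stationary phase, for instance, was at 688 and 576 CPM in cultures 1 and 2 but at 1042 and 944 CPM in cultures 3 and 4, while A1 was at 689.8, 594 and 789 CPM.

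With A0 cultures 1 and 2 alone, 15 genes were higher and 3 lower in A1 at exponential phase (17.7% and 19.7% of all genes), and 10 were higher and 4 lower at stationary phase (20.2% and 21.6%). With A0 cultures 3 and 4 alone, the counts were 5 and 3 at exponential phase (11.4% and 14%), and 2 and 10 at stationary phase (18.2% and 19.1%). So the balance at stationary phase turned with the set of A0 cultures, from more genes higher to more genes lower. The fold change changed sign between the sets for 11 genes at stationary phase, among them Hsd17b7, which was 0.42 (adjusted p = 0.0107) with the first set and -0.48 (adjusted p = 0.016) with the second. For Hmgcs1 the values were 0.11 (adjusted p = 0.304) and -0.53 (adjusted p = 0.000408).

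At exponential phase, 7 of the 13 calls (Pmvk, Fdps, Scap, Acss2, Acaca, Elovl5 and Acsl3) were made the same way with each set, and 6 were not. Hmgcs1 (adjusted p = 0.155), Mvd (0.0627), Lss (0.124), Hsd17b7 (0.0889) and Dhcr7 (0.132) failed with cultures 3 and 4, and Stard4 failed with both sets. At stationary phase Sqle, Msmo1, Srebf2, Scap and Fasn were called with each set, and Dhcr7 failed with cultures 3 and 4 (0.0722).

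**Figure D3:**
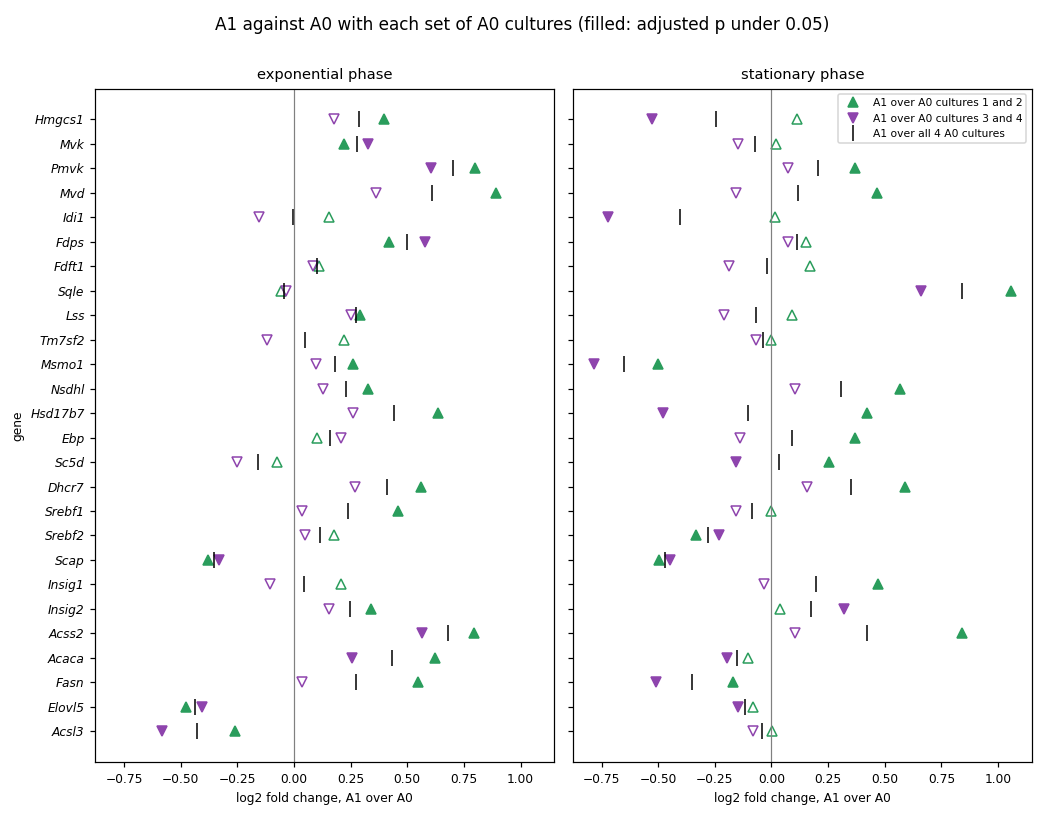
Log2 fold change of A1 over A0 for 26 genes at exponential phase (left) and stationary phase (right), with A0 cultures 1 and 2 alone (green, upward triangles), with A0 cultures 3 and 4 alone (purple, downward triangles) and with all 4 (black bars). Filled symbols have an adjusted p under 0.05. At stationary phase Sqle, Msmo1, Srebf2, Scap and Fasn keep their side of 0 with filled symbols for both sets, while Hsd17b7 and Sc5d are filled on opposite sides.

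The change from exponential to stationary phase was then read within each line. In A1 more of the genes fell than rose. Of 27 genes tested, 16 fell and 2 rose, against 17.8% and 15.6% of the 18548 genes tested, and the medians were -0.35 over the 27 and 0.032 over all genes. All 6 mevalonate genes fell, and so did 7 of the 10 later sterol enzymes. With all 6 groups in 1 fit, 8 fell (Mvk, Idi1, Sqle, Nsdhl, Hsd17b7, Ebp, Sc5d and Acss2) and none rose, against 5.73% and 5.83% of all genes, and these 8 of the 18 calls stayed past the threshold under every alternative run. In A0, 8 of 27 fell and 4 rose, against 20% and 17.6% of 20326 genes, with medians of -0.075 and 4.9e-05. In CHO-S, 3 of 28 rose and 1 fell, against 6.81% and 6.48% of 17367 genes. Without CHO-S culture 1 at both phases, 12 rose and 8 fell, against 21.9% and 24.3%. The 8 proliferation genes fell with phase in the same libraries (7 of 8 in A0 and in A1, 3 of 8 in CHO-S), and their part in the sterol genes was not tested.

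Deviations of same-numbered A0 cultures correlated between the phases (see the processing notes), which does not separate single cultures from the sets described above. With the culture number as a block, 11 genes fell and 5 rose in A0, against 22.7% and 20% of all genes in the same fit. The added calls were Idi1 (-0.42, adjusted p = 3.86e-05), Hsd17b7 (-0.36, adjusted p = 0.00279) and Insig1 (-0.37, adjusted p = 0.000335), which fell, and Fasn (0.24, adjusted p = 0.0155), which rose. Without the block, Acss2 was lost without A0 culture 1, 2 or 4 (adjusted p from 0.0849 to 0.167) and Insig2 without A0 culture 1 (0.0909). In A1, Pmvk was lost without culture 1 (0.174) or 3 (0.0645), and Msmo1 without culture 1 (0.0642).

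In the fits of each line alone, Mvk, Sqle, Nsdhl, Ebp, Sc5d and Acss2 fell in both antibody lines, and Srebf2 and Insig2 rose in both. Nsdhl, a sterol dehydrogenase, went from 109, 109, 113 and 137 CPM to 51.4, 49.1, 70.9 and 68.7 CPM in A0 and from 132, 137 and 142 CPM to 67.8, 76.4 and 80.2 CPM in A1. The log2 changes were -0.97 ± 0.13 and -0.85 ± 0.066, with no overlap of phases. Sc5d, a sterol desaturase, went from 642, 629, 762 and 676 CPM to 330.3, 287, 411 and 417 CPM in A0 and from 598, 580.3 and 639.5 CPM to 353, 386 and 377 CPM in A1 (-0.92 ± 0.12 and -0.68 ± 0.055). Ebp, the sterol isomerase, went from 232, 208, 187 and 222 CPM to 100.2, 91.7, 154 and 121 CPM in A0 and from 232, 227 and 252 CPM to 124, 119 and 132 CPM in A1 (-0.87 ± 0.14 and -0.90 ± 0.061). The phases did not overlap for either gene. Mvk went from 47.6, 43.6, 38.3 and 46.4 CPM to 31.3, 24.7, 32.5 and 30.9 CPM in A0 and from 51.95, 53.1 and 55.1 CPM to 26.6, 27.8 and 31.2 CPM in A1, log2 changes of -0.57 ± 0.11 and -0.88 ± 0.081. In CHO-S, Nsdhl fell from 154, 152 and 147 CPM to 121, 91.6 and 95.4 CPM (-0.57 ± 0.15, adjusted p = 0.0494), and Mvk (-0.70 ± 0.41, adjusted p = 0.31), Ebp (-0.68 ± 0.23, adjusted p = 0.0976) and Sc5d (-0.11 ± 0.16, adjusted p = 0.729) did not pass the test. Without culture 1 their values were -0.68 (adjusted p = 2.36e-10), -0.39 (adjusted p = 0.000103), -0.46 (adjusted p = 2.56e-08) and -0.27 (adjusted p = 1.76e-05).

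Sqle showed the largest change with phase among the 27 genes in A0. It went from 119, 139, 143 and 111 CPM to 33.5, 33.4, 42.6 and 46.1 CPM in A0, a log2 change of -1.72 ± 0.13 (adjusted p = 4.06e-08). In A1 it went from 125, 111 and 136 CPM to 66.4, 69.6 and 74.7 CPM (-0.80 ± 0.072, adjusted p = 2.87e-10). In CHO-S it went from 118, 119 and 111 CPM to 153, 138 and 124 CPM, with every stationary culture above every exponential one. This did not pass the test (0.25 ± 0.13, adjusted p = 0.266), but passed it without culture 1 (0.20, adjusted p = 0.00509).

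Msmo1 rose in A0 and fell in A1, but the fall in A1 was not called with all 6 groups in 1 fit. In A0 it went from 185, 176, 179.8 and 225 CPM to 269, 230.3, 318 and 295 CPM (0.53 ± 0.11, adjusted p = 0.00148), and in A1 from 216, 201 and 235 CPM to 181, 158 and 196 CPM (-0.27 ± 0.069, adjusted p = 0.00284). In CHO-S it rose from 338, 309.9 and 303 CPM to 474, 521 and 471 CPM (0.63 ± 0.12, adjusted p = 0.0147). Phases did not overlap in any of the lines. The SREBP gene Srebf2 rose in A0 from 298, 299, 330.4 and 324 CPM to 563, 537, 529.6 and 506 CPM (0.76 ± 0.088, adjusted p = 4.98e-06) and in A1 from 323, 333 and 361 CPM to 469, 414 and 446 CPM (0.40 ± 0.058, adjusted p = 1.5e-06), at the same time as most of the enzyme genes called in those lines fell. In CHO-S it was at 339.7, 338 and 316 CPM and 183, 387 and 395 CPM (-0.028 ± 0.27, adjusted p = 0.958), and without culture 1 the sign turned and it rose (0.26, adjusted p = 2.97e-05). Insig2 rose by 0.47 ± 0.13 in A0 and 0.43 ± 0.10 in A1. With all 6 groups in 1 fit, neither the Srebf2 nor the Insig2 rise was called in A1.

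Acaca went from 169, 182, 214 and 239 CPM to 276, 301, 310.5 and 309 CPM in A0, a rise of 0.56 ± 0.11 (adjusted p = 0.000681) with no overlap, and from 265, 272 and 277 CPM to 269, 267 and 278 CPM in A1 (0.018 ± 0.054, adjusted p = 0.846). Fasn went from 673, 659.7, 860.3 and 1037 CPM to 795, 880.0, 1091 and 1050.0 CPM in A0 (0.23 ± 0.14, adjusted p = 0.235) and fell in A1 from 987, 937 and 1006 CPM to 755, 758 and 751 CPM (-0.35 ± 0.05, adjusted p = 1.1e-06). Acss2 had log2 changes of -0.46 ± 0.16 in A0 and -0.67 ± 0.086 in A1. Elovl5 (-0.46 ± 0.087, adjusted p = 0.000511) and Acsl3 (-0.55 ± 0.10, adjusted p = 0.000448) fell in A0, while in A1 they had -0.096 ± 0.056 (adjusted p = 0.2) and -0.12 ± 0.066 (adjusted p = 0.155). The other falls called in A1 were those of Hmgcs1 (-0.44 ± 0.068), Pmvk (-0.25 ± 0.08), Mvd (-0.50 ± 0.072), Idi1 (-0.73 ± 0.062), Fdps (-0.42 ± 0.053), Lss (-0.38 ± 0.067) and Hsd17b7 (-0.81 ± 0.10). Of these and the Fasn fall, only those of Idi1 and Hsd17b7 were also called with all 6 groups in 1 fit. Stard4 was also called there, from 10 counts over 3 exponential cultures to 0, and is described with CHO-S.

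In CHO-S, the rises were in Insig1, Msmo1 and Hmgcs1. Insig1 went from 223, 214 and 199 CPM to 637, 389 and 362 CPM (1.13 ± 0.23, adjusted p = 0.0205), and Hmgcs1 from 999, 923 and 847 CPM to 1400.5, 1523 and 1295 CPM (0.61 ± 0.12, adjusted p = 0.0158). The stationary cultures lay above the exponential ones in both cases, with culture 1 highest for Insig1. Without culture 1 the values were 0.87 (adjusted p = 4.68e-13) and 0.67 (adjusted p = 2.37e-10), and without culture 2 or 3 none of the 4 calls was made (adjusted p from 0.304 to 0.475). The fit without culture 1 compared 2 cultures per phase. Their estimated spread (biological coefficient of variation) was 0.031, against 0.19 with culture 1, and the smaller adjusted p-values go with that smaller spread. Over the same step Insig1 had -0.36 ± 0.14 (adjusted p = 0.0599) in A0 and -0.17 ± 0.074 (adjusted p = 0.0815) in A1, and Hmgcs1 had 0.057 ± 0.15 (adjusted p = 0.811) in A0 and fell in A1. Without culture 1, Fasn fell in CHO-S (-0.77, adjusted p = 2.38e-13), from 966 and 950.3 CPM to 558 and 568 CPM, and Acss2 rose by 0.57 (adjusted p = 2.85e-09). Fdps turned from -0.15 ± 0.27 (adjusted p = 0.77) to 0.11 (adjusted p = 0.0226).

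**Figure D4:**
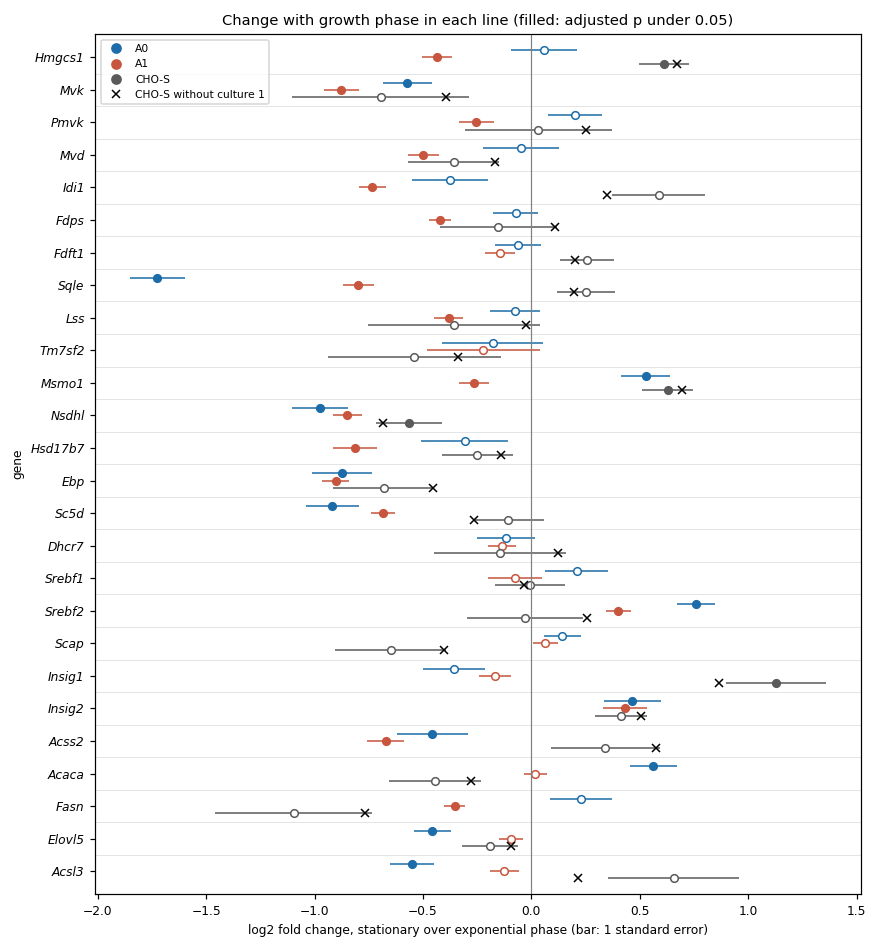
Log2 fold change from exponential to stationary phase in A0 (blue), A1 (red) and CHO-S (grey) for 26 genes, with bars of 1 standard error, and in CHO-S without culture 1 at both phases (black crosses, no bars). Filled circles have an adjusted p under 0.05. Sqle lies at -1.72 ± 0.13 in A0, -0.80 ± 0.072 in A1 and 0.25 ± 0.13 in CHO-S.

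Whether the change with phase differed between A1 and A0 was tested as an interaction of line and phase. It was higher in A1 for 1 of 28 genes and lower for 4, against 5.03% and 3.89% of the 20978 genes tested. With the culture number as a block in both lines, 3 were higher and 11 lower, against 8.91% and 7.45%. This block also pairs the A1 phases, whose samples share only a number. The added calls were Elovl5 (0.32, adjusted p = 0.0391) and Acsl3 (0.38, adjusted p = 0.0148), which were higher, and Hmgcs1, Pmvk, Mvd, Idi1, Fdps, Lss and Hsd17b7, which were lower, from -0.51 (Hmgcs1) to -0.33 (Lss). Sqle fell less in A1, with an interaction of 0.89 ± 0.16 (adjusted p = 0.0012). Msmo1 (-0.83 ± 0.15, adjusted p = 0.0013), Fasn (-0.62 ± 0.18, adjusted p = 0.0279), Acaca (-0.58 ± 0.14, adjusted p = 0.00795) and Srebf2 (-0.40 ± 0.11, adjusted p = 0.0296) had a lower change in A1 than in A0. Sqle and Msmo1 stayed past the threshold under every alternative run. Srebf2 was lost without A0 culture 1 or 2 or any 1 of the A1 cultures (adjusted p from 0.0527 to 0.229), Fasn without A0 culture 2 or 3 or any 1 of the A1 cultures (0.0545 to 0.15), and Acaca without A1 culture 2 (0.0996) or 3 (0.0566). Without A1 culture 1 there were 2 lower genes and without A1 culture 2 or 3 there was 1, and without A0 culture 4 there were 2 higher genes.

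The same test against CHO-S was added after the values had been seen. In A0 the change with phase was higher than in CHO-S for 2 genes and lower for 5 (3.77% and 6.55% of all genes), and in A1 for none and 6 (3.83% and 3.77%). Without CHO-S culture 1 at both phases the counts were 4 and 5 in A0 (6.65% and 7.5%), and 3 and 18 in A1 (11.6% and 11.5%). Sqle had a lower change in both antibody lines than in CHO-S, at -1.98 ± 0.20 (adjusted p = 3.21e-06) for A0 and -1.05 ± 0.16 (adjusted p = 0.00161) for A1. So did Insig1, at -1.47 ± 0.27 (adjusted p = 0.00107) for A0 and -1.29 ± 0.26 (adjusted p = 0.00762) for A1. Without that culture they were -1.87 and -1.02 for Sqle and -1.18 and -1.06 for Insig1, all past the threshold. With that culture included, Fasn (1.30 ± 0.36, adjusted p = 0.0265) and Acaca (0.98 ± 0.24, adjusted p = 0.0105) had a higher change in A0 than in CHO-S. In the same setting, Hmgcs1 (-1.06 ± 0.16, adjusted p = 0.0013) and Idi1 (-1.32 ± 0.23, adjusted p = 0.00358) had a lower change in A1 than in CHO-S. The Fasn call was lost without A0 culture 1, 2 or 3 (adjusted p from 0.0602 to 0.0871), which left 1 higher gene each, and only 3 genes were lower without A0 culture 1 or 2 or CHO-S culture 2. The Insig1 call in A1 was lost without any 1 of the A1 cultures (0.055 to 0.073). These comparisons share the CHO-S cultures.

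The antibody lines were compared with CHO-S at exponential phase. In A0, 13 of 28 were lower and 5 higher (21.8% and 27.4% of the 20052 genes tested), with a median of -0.23 over the 28 and 0.15 over all genes. In A1, 12 of 28 were lower and 8 higher (27.1% and 30% of 18488 genes), with medians of 0.027 and 0.055. With all 6 groups in 1 fit the A1 counts turned to 3 lower (Lss, Msmo1 and Stard4) and 5 higher (Sc5d, Srebf1, Acss2, Elovl5 and Acsl3), against 16.2% and 19.1% of all genes, and these 8 of the 20 calls stayed under every alternative run. Among the 16 sterol enzymes, 10 were lower and 1 higher in A0, and 9 lower and 3 higher in A1. The A0 and A1 comparisons share the CHO-S cultures.

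Lss was at 319.8, 351 and 347 CPM in CHO-S, at 147, 141, 135 and 161 CPM in A0 and at 181, 158 and 191 CPM in A1. Both lines lay far below CHO-S, at -1.21 ± 0.085 (adjusted p = 3.18e-08) for A0 and -0.94 ± 0.057 (adjusted p = 9.49e-13) for A1. Fdps was at 892, 920.3 and 929 CPM in CHO-S, above A0 (-0.86 ± 0.095, adjusted p = 2.9e-06) and A1 (-0.38 ± 0.043, adjusted p = 5.83e-08). Msmo1 was at 338, 309.9 and 303 CPM in CHO-S, again above A0 (-0.72 ± 0.096, adjusted p = 2.06e-05) and A1 (-0.55 ± 0.054, adjusted p = 5.02e-09). The cultures of the lines did not overlap for these 3 genes. Insig1 (-0.48 ± 0.10 in A0 and -0.45 ± 0.065 in A1) and Insig2 (-0.52 ± 0.12 and -0.29 ± 0.089) were lower in the antibody lines as well, with CHO-S at 223, 214 and 199 CPM for Insig1 and 20.4, 19.4 and 19.4 CPM for Insig2. Mvk, Mvd, Idi1, Fdft1, Nsdhl and Hsd17b7 were lower in both, from -0.75 ± 0.14 (Mvd in A0) to -0.14 ± 0.047 (Nsdhl in A1), and Pmvk was lower in A0 (-0.40 ± 0.11) but higher in A1 (0.29 ± 0.072). Sqle did not pass the test in either line at this phase (0.15 ± 0.099 and 0.094 ± 0.061).

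The genes higher in both antibody lines were Sc5d, Srebf1, Elovl5 and Acsl3. Acsl3 was at 63.9, 67.7 and 66.4 CPM in CHO-S, and was higher in A0 by 1.63 ± 0.11 (adjusted p = 1.36e-08) and in A1 by 1.19 ± 0.061 (adjusted p = 6.26e-14). Elovl5 was at 169.9, 158 and 163 CPM in CHO-S, below A0 (1.09 ± 0.083, adjusted p = 6.97e-08) and A1 (0.63 ± 0.047, adjusted p = 4.13e-11). Sc5d was at 445, 441 and 412 CPM in CHO-S (0.66 ± 0.09 and 0.48 ± 0.046), and Srebf1 at 6.21, 6.60 and 7.37 CPM (0.55 ± 0.16 and 0.77 ± 0.12). None of these overlapped CHO-S. Acss2 was at 100.2, 99.4 and 103 CPM in CHO-S and was higher in A1 (0.81 ± 0.076, adjusted p = 2.69e-09) but not past the threshold in A0 (0.14 ± 0.093, adjusted p = 0.223). Scap was higher in A0 (0.47 ± 0.079, adjusted p = 0.00019) with CHO-S at 189, 189.8 and 192 CPM, and in A1 had 0.098 ± 0.047 (adjusted p = 0.0785). Without CHO-S culture 1, Idi1 (0.0545) and Srebf1 (0.0669) left the threshold in A0, and Mvd (0.0915) and Nsdhl (0.0565) in A1 (adjusted p). Dhcr7 (0.31 ± 0.059) and Acaca (0.21 ± 0.044) were higher in A1 as well. Mvd was also lost in A1 without A1 culture 2 (0.22) or CHO-S culture 2 (0.2) or 3 (0.0919), Nsdhl without CHO-S culture 2 (0.0509) and Mvk without CHO-S culture 2 (0.104).

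**Figure D5:**
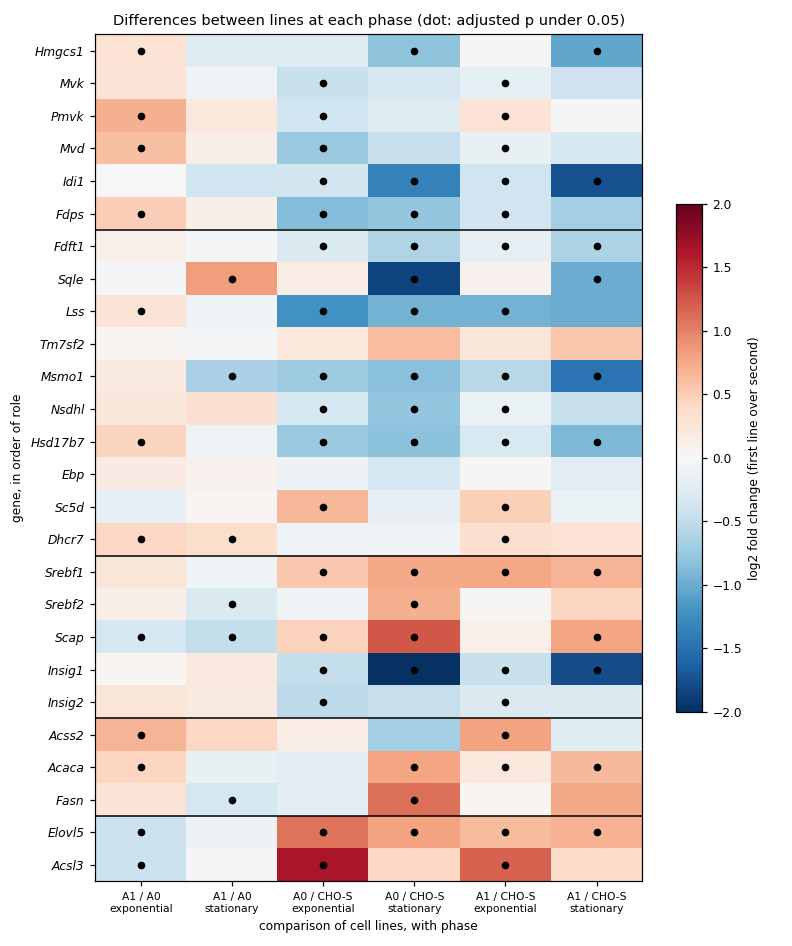
Log2 fold changes between lines for 26 genes (rows, in order of role, with black lines between roles) in 6 comparisons (columns), coloured from blue (lower in the first line) to red (higher) on a scale from -2 to 2. Dots mark an adjusted p under 0.05. The sterol enzyme rows are mostly blue in the 4 CHO-S columns, where Scap, Srebf1 and Elovl5 are red, and the stationary CHO-S columns include culture 1.

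At stationary phase, 11 of 28 genes were lower in A0 than in CHO-S and 6 higher (19.3% and 20.7% of 19007 genes), and 8 were lower and 4 higher in A1 (16.6% and 18.2% of 18243 genes). The medians over the 28 genes were -0.40 for A0 and -0.30 for A1, against 0.08 and 0.062 over all genes. Without CHO-S stationary culture 1, the counts were 17 lower and 7 higher in A0 (23.8% and 28%) and again 17 and 7 in A1 (27.5% and 29.9%). Leaving out CHO-S culture 2 instead left 6 genes lower in A0, with no share of all genes computed.

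Insig1 was at 108, 87.7, 148 and 130.5 CPM in A0, 143, 123 and 144 CPM in A1 and 637, 389 and 362 CPM in CHO-S. The antibody lines lay below CHO-S, at -1.98 ± 0.24 (adjusted p = 0.000107) for A0 and -1.77 ± 0.24 (adjusted p = 0.000805) for A1, or -1.65 and -1.48 without culture 1. Sqle was lower than in CHO-S, at -1.84 ± 0.16 (adjusted p = 1.43e-05) in A0 and -0.99 ± 0.15 (adjusted p = 0.0017) in A1, and at -1.73 and -0.92 without culture 1. Idi1 was at 188, 144, 287 and 269 CPM in A0, 164, 159.6 and 184 CPM in A1 and 758, 473 and 450.1 CPM in CHO-S. It was lower in A0 (-1.35 ± 0.26, adjusted p = 0.00221) and in A1 (-1.74 ± 0.23, adjusted p = 0.00068), and without culture 1 the values were -1.04 and -1.47. Hmgcs1 (-0.81 ± 0.20 and -1.04 ± 0.15), Msmo1 (-0.83 ± 0.14 and -1.47 ± 0.15), Fdft1 (-0.61 ± 0.15 and -0.62 ± 0.15) and Hsd17b7 (-0.82 ± 0.27 and -0.90 ± 0.20) were lower in both lines. In A0, Fdps (-0.80 ± 0.24), Lss (-0.94 ± 0.34) and Nsdhl (-0.77 ± 0.18) were lower too. These fits include CHO-S culture 1. There Lss was at 99.1 CPM against 351 and 335 CPM in cultures 2 and 3, and Fdps at 458 CPM against 1022 and 976 CPM. None of the 16 sterol enzymes was called higher in these fits. In A0, Hmgcs1 (adjusted p = 0.0572) and Fdft1 (0.0532) left the threshold without CHO-S culture 2. In A1, Fdft1 was lost without A1 culture 1 (0.0608) or 2 (0.0828), and Hsd17b7 without A1 culture 2 (0.0563) or CHO-S culture 2 (0.0512). In A0, Lss left the threshold without any 1 of the A0 cultures or CHO-S culture 2 or 3 (adjusted p from 0.0648 to 0.252), Hsd17b7 without A0 culture 1, 2 or 4 or CHO-S culture 2 or 3 (0.0614 to 0.237) and Fdps without A0 culture 2 or 4 or CHO-S culture 2 or 3 (0.0558 to 0.158).

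Higher in both antibody lines were Srebf1, Scap, Acaca and Elovl5. Scap was at 68.1, 149 and 138 CPM in CHO-S, below A0 (1.24 ± 0.23, adjusted p = 0.00175) and A1 (0.78 ± 0.26, adjusted p = 0.0439), and without culture 1 the differences were 1.03 and 0.52. Elovl5 was at 125, 149.8 and 152 CPM in CHO-S (0.81 ± 0.14, adjusted p = 0.00106 and 0.70 ± 0.14, adjusted p = 0.00625), and 0.76 and 0.62 without culture 1. Srebf1 was at 4.13, 6.60 and 7.32 CPM in CHO-S (0.76 ± 0.19 and 0.68 ± 0.17). Fasn was at 189, 558 and 568 CPM in CHO-S and was higher in A0 by 1.09 ± 0.32 (adjusted p = 0.0198), which was 0.78 (adjusted p = 0.00022) without culture 1. This A0 call was lost without A0 culture 3 (adjusted p = 0.0514). In A1 the Fasn difference was 0.76 ± 0.35 (adjusted p = 0.128), and past the threshold without culture 1 at 0.40 (adjusted p = 3.9e-08). Srebf2 was higher in A0 (0.70 ± 0.24, adjusted p = 0.0364), with 0.47 (adjusted p = 0.000312) without CHO-S culture 1, and was lost without any 1 of the A0 cultures (0.063 to 0.086). The 4 genes called higher in A1 fell to 2 without A1 culture 1 or CHO-S culture 2, and to 1 without A1 culture 2 or 3 or CHO-S culture 3, Elovl5 being called in each case.

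Stard4, which carries cholesterol between membranes, was the sharpest difference from CHO-S among the 28 genes. Differences of such size, in the other direction, were also found outside them. Among 19 genes of acyl-CoA synthetases and glycerolipid synthesis, the highest log2 fold change over CHO-S was 10.6 in A0 and 10.5 in A1 at exponential phase. At stationary phase, with CHO-S culture 1 included, it was 12.1 and 11.2. It was at 35.9, 37.01 and 32.3 CPM in CHO-S at exponential phase and at 45.4, 31.5 and 34.1 CPM at stationary phase. In A0 it had 1 count over the 4 exponential cultures and none over the 4 stationary ones. In A1 it had 9, 1 and 0 counts in the exponential cultures and none in the stationary ones. Read on pooled counts, the CHO-S level was 3464 times that of A0 (95% exact interval 621 to 136920) and 130 times that of A1 (70.3 to 271) at exponential phase. At stationary phase it was at least 537-fold higher than in A0 and at least 349-fold higher than in A1, taking 3 counts over the group as the floor. These intervals and floors cover counting error only. The test called Stard4 higher in A1 than in A0 at exponential phase (adjusted p = 0.0292), which rested on the 9 counts of A1 culture 1 (0.587 without it) and was also lost without A0 culture 1, 3 or 4 (0.0637 to 0.0782). The call of a fall with phase in A1 (adjusted p = 0.0387) rested on the same counts and was lost without culture 3 (0.0974).

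Fads2, Tm7sf2 and Fdft1 remain to be described. Fads2, a desaturase of polyunsaturated chains, had at most 5 counts in any culture, and no fold is given for it. Tm7sf2, a sterol reductase, was at 1.64 to 2.55 CPM in A0 and 2.05 to 2.21 CPM in A1 at exponential phase, with fold changes that did not pass the test between the lines at either phase. Fdft1, the squalene synthase, was at 132 to 138 CPM in A0, 134 to 154 CPM in A1 and 162 to 165 CPM in CHO-S at exponential phase.

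Genes that act on SREBP or on the products of the pathway were read from further lists, and those named from them were picked after their values were seen. Of 10 genes for SREBP activation and sterol-regulated degradation, 2 were higher and 4 lower in A1 than in A0 at exponential phase, and none higher and 5 lower at stationary phase. Over all genes the shares were 12% higher and 13.8% lower at exponential phase, and 16% and 17.7% at stationary phase. Mbtps1, the site-1 protease that makes the first cut in SREBP, was at 196, 198, 206 and 203 CPM in A0 and 107, 113 and 115 CPM in A1 at exponential phase, a difference of -0.85 ± 0.083 (adjusted p = 4.22e-06). At stationary phase it was at 308, 284, 274 and 291 CPM in A0 and 107, 119 and 125 CPM in A1 (-1.32 ± 0.076, adjusted p = 3.1e-08), with no overlap at either phase. Erlin1, part of a complex that takes part in sterol-regulated degradation, was lower at both phases (-0.34 ± 0.082 and -0.60 ± 0.082). Mbtps2, the site-2 protease, was lower at stationary phase (-0.56 ± 0.091).

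Of 13 genes of sterol transport, efflux and storage, 4 were higher and 1 lower in A1 at exponential phase, and 3 higher and 3 lower of 12 at stationary phase. Of 12 genes of the isoprenoid branch, which draws on the same farnesyl units, none was higher and 3 lower, then 3 higher and 3 lower. Of 7 genes that supply acetyl-CoA, malonyl-CoA and NADPH, none was higher and 1 lower, then 1 higher and 3 lower. Of 11 further elongases and desaturases tested, 1 was higher and 1 lower, then 1 higher and 3 lower of 10. Of 19 acyl-CoA synthetases and glycerolipid enzymes, 6 were higher and 4 lower, then 5 higher and 8 lower. These counts stand beside the same 12% and 13.8% of all genes at exponential phase and 16% and 17.7% at stationary phase, and nothing particular to a list is read from them.

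Fatty acid oxidation, the opposite route, differed between the lines at stationary phase. Of its 12 genes, 7 were higher in A1 and none lower, against 16% and 17.7% of all genes, and at exponential phase none was higher and 1 lower. Cpt1a, which admits fatty acids to the mitochondrion, was at 101, 106, 118 and 116 CPM in A0 and 119.7, 109 and 118 CPM in A1 at exponential phase. At stationary phase it was at 38.9, 41.7, 49.1 and 39.9 CPM in A0 and 133, 166 and 137 CPM in A1. The A1 cultures lay above all A0 cultures there, by 1.77 ± 0.10 (adjusted p = 2.6e-08), and the interaction of line and phase was 1.70 ± 0.14 (adjusted p = 8.13e-08). Acadm (0.90 ± 0.12), Acaa2 (0.59 ± 0.081), Hadha (0.57 ± 0.066), Acadvl (0.52 ± 0.064), Hadhb (0.35 ± 0.074) and Slc25a20 (0.30 ± 0.076), which encode further steps of the route, were higher as well. In CHO-S, Cpt1a was at 229.9, 230.6 and 237 CPM at exponential phase and at 149, 211 and 225 CPM at stationary phase. For genes outside the 28, fits with either set of A0 cultures alone or with 1 culture left out were not run.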

How the data were processed

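RNA sequencing libraries of A0, A1 and CHO-S cells in exponential and stationary phase (24 libraries, 20 cultures) were analysed from the deposited table of read counts per gene. The authors aligned reads with STAR 2.5.4b, per the labels' processing notes, and counted them per gene with HTSeq 0.7.2, so the deposited values are whole-number counts with no normalization. The methods name the C_griseus_v1.0 genome, and the strand setting of the counting is not given in the sources used here, so reads of overlapping genes on opposite strands cannot be told apart. The 5 summary lines of the counter, which name no gene, were left out of library sizes. Reads without a feature made up 11.9% to 32.8% of a library, reads without a unique place 12.7% to 14.8%, unaligned reads 2.31% to 11.5% and ambiguous reads 0.357% to 0.403%. No column was left without a sample (0 columns).

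The 8 exponential A0 libraries were summed by culture number to 4 cultures. Genes counted at least once in 2 or more libraries, with values that were not all equal, were scaled by TMM and tested with edgeR 4.0.16 (R 4.3.3) by the two-sided quasi-likelihood test in fits of the groups compared, with Benjamini-Hochberg adjustment over all genes tested and a threshold of 0.05. Interactions came from fits of 4 groups. The scripts were tested on simulated data. The standard error is the log2 fold change divided by the root of the F statistic. Ratios for Stard4 have 95% exact counting intervals, with a floor of 3 counts.

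Deviations from the group means were correlated between same-numbered exponential and stationary cultures, over genes of at least 5 CPM. In A0 the correlations were 0.42, 0.31, 0.27 and 0.19, and in A1 and CHO-S they ran from -0.12 to 0.15. Correlations between A0 cultures of different numbers were not computed. The sets of A0 cultures described above differ at both phases, so the A0 values cannot show pairing of single cultures. Alternatives were DESeq2 1.42.0, size factors in place of TMM, 2 other filters on low counts, all 6 groups in 1 fit, the culture number as a block, A0 libraries without a suffix, either set of A0 cultures alone, and leaving out each culture. Values were given for every culture for the most changed called genes of each comparison and for the SREBP regulators. The members, lists, sets of A0 cultures and named genes were chosen with earlier results of these data known, and the CHO-S interactions were added after values were seen. One marker of another cell type is not reported here.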

Additional observations from a re-analysis of the deposited data

Results flagged for a closer look

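In 4 of the 55 groups of 4 cultures examined, 1 culture stood far from the others by Dixon's ratio of its gap to the whole range (above its 95% critical value). Chance gives about 1 in 20 such groups. All 4 were exponential A0 cultures: Nsdhl, where culture 4 was highest (ratio 0.8346), Elovl5, where culture 1 was highest (0.8665), Stard4, with a single count in 1 culture (ratio 1), and Fads2 (0.9066), which had at most 5 counts in any culture.

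The change with phase differed between A1 and A0, by the interaction test, for Sqle (0.8853 on the log2 scale), Msmo1 (-0.8300), Fasn (-0.6227), Acaca (-0.5841) and Srebf2 (-0.3967). It differed between A0 and CHO-S for Sqle (-1.9784), Insig1 (-1.4744), Fasn (1.2994), Acsl3 (-1.1714), Acaca (0.9817), Idi1 (-0.9553) and Sc5d (-0.8070). It differed between A1 and CHO-S for Idi1 (-1.3232), Insig1 (-1.2912), Hmgcs1 (-1.0551), Acss2 (-1.0528), Sqle (-1.0511) and Msmo1 (-0.9013). The last 2 sets of comparisons share the CHO-S cultures and include CHO-S stationary culture 1. Some of these calls were lost when 1 culture was left out at both phases. In the comparison of A0 with CHO-S, Idi1 was lost without A0 culture 1, 2 or 4 or any 1 of the CHO-S cultures (adjusted p from 0.0707 to 0.119), and Sc5d without A0 culture 1 or 2 or CHO-S culture 2 (0.0501 to 0.0739). In that of A1 with CHO-S, Acss2 was lost without any 1 of the A1 cultures or without CHO-S culture 2 or 3 (0.119 to 0.228).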

How the results depend on the processing

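Over the gene results under all alternatives, 3648 stayed on 1 side of the threshold with their sign, 217 lost a call, 211 gained one and 4 changed sign with a call in 1 of the fits. The sign changes were Hsd17b7 (0.42) with A0 cultures 1 and 2 alone and Sc5d (-0.16) with cultures 3 and 4 alone, both for A1 against A0 at stationary phase, and Fdps (0.11) and Srebf2 (0.26) for phase in CHO-S without culture 1 at both phases. Leaving out each culture in turn gave -0.33 to 0.11 for Fdps and -0.23 to 0.26 for Srebf2 there. The causes of the moves were not tested.

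Counts of genes are given as higher or lower. For most of these alternatives the share of all genes was not computed. Where no share was given above, a change in a count is not read as particular to the 28 genes. With all 6 groups in 1 fit, A1 against A0 had 6 higher and 1 lower at exponential phase and 1 and 2 at stationary phase, the A1 and A0 interaction 1 lower, phase 0 higher and 8 lower in A1 and 6 and 6 in CHO-S, and A1 against CHO-S at exponential phase 5 and 3. With DESeq2 the A1 and A0 interaction had 3 higher, phase in CHO-S 2 lower, the A0 and CHO-S interaction 4 higher and the A1 and CHO-S interaction 10 lower. Without a filter there were 4 higher for A1 against A0 at stationary phase, 2 higher for their interaction and 0 lower for phase in CHO-S, and the stricter filter gave 2 higher and 0 lower for the last pair. Size factors gave 0 lower for phase in CHO-S. With libraries without a suffix the A1 and A0 interaction had 9 lower.

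With A0 cultures 1 and 2 alone, A1 against A0 at stationary phase had 10 higher, the interaction 3 higher and A0 against CHO-S at stationary phase 2 higher. With cultures 3 and 4 alone, A1 against A0 had 5 higher at exponential and 10 lower at stationary phase, the interaction 2 higher and 10 lower, and A0 against CHO-S at stationary phase 3 higher and 5 lower.

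With the culture number as a block, A1 against A0 at stationary phase had 5 higher, the A1 and A0 interaction 3 higher and 11 lower, and phase in CHO-S 0 and 0. Between lines, and between phases of A1 and CHO-S, samples share only a number. In A0, pairing of the phases beyond the sets of cultures was not tested.

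Leaving out 1 culture gave, for A1 against A0, 4 to 14 higher and 1 to 3 lower at exponential phase, 1 to 5 and 2 to 6 at stationary phase, and 1 to 2 and 1 to 5 for the interaction. It gave 0 to 12 and 0 to 8 for phase in CHO-S, 6 to 17 lower for A0 and 1 to 7 higher and 6 to 17 lower for A1 against CHO-S at stationary phase, 1 to 4 and 3 to 5 for the A0 and CHO-S interaction, and 0 to 3 and 4 to 18 for that of A1. Low counts limit Stard4 in A0 and A1, and Fads2 and Tm7sf2 in every line, and low depth limits CHO-S stationary culture 1.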
